A study of Mus musculus with 3 samples.

Results

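The circRNAs described here come from 6 host genes that serve the response to thyroid hormone: the Mediator subunits Med12l, Med13 and Med13l, the nuclear receptor coregulators Ncoa2 and Nrip1, and the thyroid hormone transporter Slc16a10. All rows of the deposited table with 1 of these host genes were taken, which gave 8 of its 563 circRNAs. Med12l and Nrip1 each gave 2 circRNAs, and the other hosts gave 1 each. The rule used gene names and no read counts, but the hosts were picked with earlier results of these data known.

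circRNAs are closed RNA circles in which an exon's 3′ end is joined to its own 5′ end or to that of an exon upstream. Only the circle has this back-splice junction, so reads across it leave out the host's linear RNA. The study asked whether electroacupuncture (EA) alters circRNAs in plasma exosomes, vesicles shed by cells into blood, of mice with type 2 diabetes. Male C57BL/6 mice, wild type by genotype, formed a normal group on basic forage, a model group and a model + EA group. Both model groups received a high-fat diet for 6 weeks and then streptozotocin (STZ), a toxin of islet β cells, daily for 7 days, and mice whose blood glucose stayed low were injected again at a higher dose. The model + EA mice were also stimulated at 2 acupoints, Zusanli and Pishu, for 15 minutes at 2 Hz, with 12 sessions spread over 4 weeks. Each group held 10 mice, but only 1 library per group was sequenced, and the sources used here give neither the age of the mice nor whether plasma of several mice was pooled. STZ acts on islets, so the model combines diet with chemical loss of β cells.

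The assignment of the libraries to groups is in conflict and bears on every direction below. By the sample titles, library A1 is the normal group, B1 the model group and C1 the model + EA group. The study's own sheets of compared circRNAs take A1 as model, B1 as model + EA and C1 as normal. The groups here follow the titles, each comparison is also named by its pair of libraries, and the reading by the sheets is given beside it. The study's text words its comparisons by the sheets. The junction reads of the 3 libraries do not settle which assignment holds. For selected circRNAs the study also reports qRT-PCR between its groups, which it describes as mostly matching its sequencing. Those values were not examined here.

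Thyroid hormone enters cells through transporters and binds nuclear receptors that sit on DNA. The bound receptor releases corepressors, recruits coactivators of the p160 family and then Mediator, the large complex that links transcription factors to RNA polymerase II. A detachable kinase module of Mediator contains a Med12 and a Med13 type subunit, each of which has a paralog in mammals. In diabetes research the hormone is known for its effects on glucose and lipid metabolism in liver, muscle and fat.

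Of the 8 circRNAs, 7 joined annotated exons at both ends, and their back-splice junctions are shown because these are the bases that a counted read has to cross. Positions are those of mm10, the bases were read from the GENCODE M21 transcripts, and each junction is written 5′ to 3′ with the last 15 bases of the last exon in capitals and the first 15 bases of the first exon in lower case.
Med12l, longer circle: CCGATCCCAATTTGGgatgaacttacagct
Med12l, shorter circle: TCAGGTGTCCCTCAGgatgaacttacagct
Med13: ACCTATAAATAAAAGaagaggaagatggag
Med13l: ATCATGAACTGCAGGgctgaactcacagga
Ncoa2: AGATCAAAGAGCAAGattttcctcgcatct
Nrip1, exonic circle: AGGCTGAGGCAGACGaaggcgtggactgtg
Slc16a10: CCTTACGTTCACTTGcgtgggtgggctcgc
Both Med12l circles carry the same lower-case bases, since they start at the same exon, and differ in the exon at which they end.

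The Mediator circles lay wholly in coding sequence near the start of their hosts. Med12l, a paralog of the kinase module subunit Med12, gave both of its circles on chromosome 3, plus strand. The longer one ran from 59031546 to 59042413 (457 nt, exons 2 to 4 of 44 in the transcript Med12l-206, codons 34 to 186). The shorter one ran from 59031546 to 59039198 (330 nt, exons 2 to 4 of 15 in the short transcript Med12l-201, codons 34 to 143). Its last exon, from 59039166 to 59039198, is 33 nt long and is skipped in Med12l-206; its sequence is shown because it separates both circles.
Med12l, last exon of the shorter circle: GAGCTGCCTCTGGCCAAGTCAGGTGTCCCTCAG
Being in frame at both ends, the shorter circle has no stop codon in the frame of its host, as is the case for 112 of the 114 wholly coding circRNAs of the table whose length is a multiple of 3.

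Med13 and Med13l, paralogs that tie the kinase module to the rest of Mediator, each formed a circle of 1 exon. The Med13 circle was exon 3 of 30 (chromosome 11 from 86345860 to 86346028, minus strand, 169 nt, codons 101 to 157). That of Med13l was exon 2 of 31 (chromosome 5 from 118593333 to 118593570, plus strand, 238 nt, codons 25 to 104). The paralogs thus circularized exons of different rank, and exon 2 of Med13, at 235 nt close in length to that of Med13l, had no circRNA in the table. Both circles are short enough to be shown whole, from the first base of the exon, with the 15 bases on each side of the back-splice junction in capitals.
Med13, whole circle: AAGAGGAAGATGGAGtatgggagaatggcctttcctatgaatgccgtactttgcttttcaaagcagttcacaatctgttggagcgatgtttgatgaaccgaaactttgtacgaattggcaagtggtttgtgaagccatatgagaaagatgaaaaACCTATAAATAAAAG
Med13l, whole circle: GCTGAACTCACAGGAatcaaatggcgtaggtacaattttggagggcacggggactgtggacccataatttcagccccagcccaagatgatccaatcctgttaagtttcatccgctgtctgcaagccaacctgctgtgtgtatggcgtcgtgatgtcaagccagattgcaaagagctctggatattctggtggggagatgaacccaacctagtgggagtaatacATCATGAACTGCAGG

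The coregulator circles reached into or stayed within the 5′ UTR. Ncoa2, a p160 coactivator that binds hormone-loaded receptors, gave a circle of exons 2 to 4 of 23 on chromosome 1 from 13221307 to 13286025, minus strand (335 nt). It holds 259 coding bases and the annotated start codon. The exonic circle of Nrip1, a corepressor that also binds receptors in the presence of ligand, joined exons 2 and 3 of 4 on chromosome 16 from 76330746 to 76352549, minus strand (197 nt), all of it 5′ UTR. The other Nrip1 circRNA was called intronic by the authors. It covered 454 nt, from 76367648 to 76368101, inside intron 1 of the transcript Nrip1-202, 5668 nt from exon 1 and 15101 nt from exon 2, and overlapped 0 annotated exons. Slc16a10, which carries aromatic amino acids and thyroid hormones across the cell membrane, gave the longest circle (599 nt), exons 2 and 3 of 6 on chromosome 10 from 40076564 to 40080807, minus strand, codons 112 to 311.

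**Figure D1:**
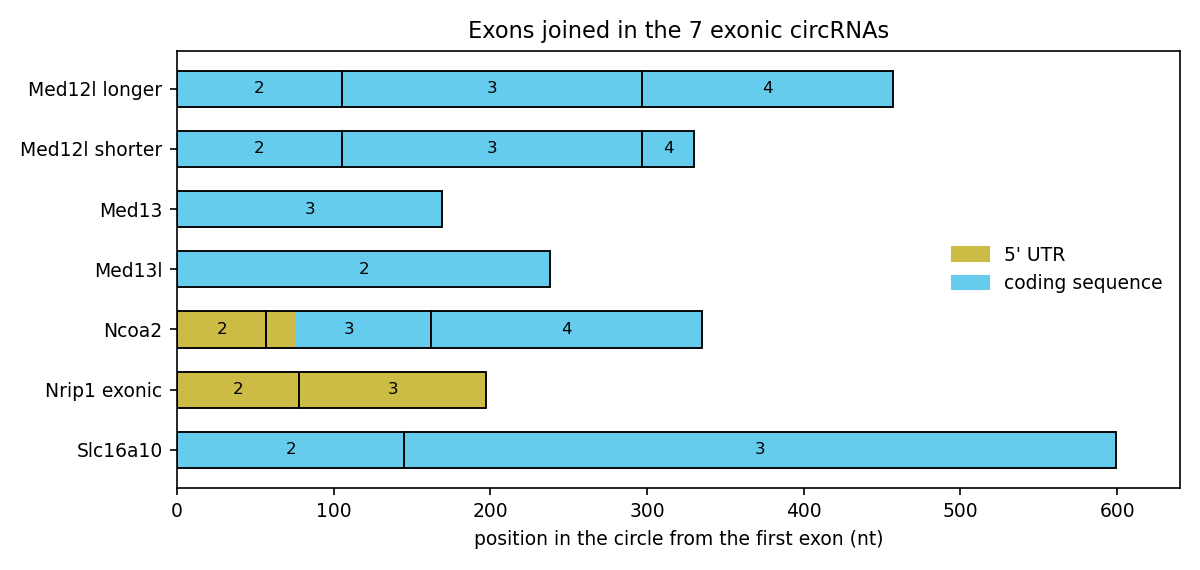
Each bar is 1 of the 7 exonic circRNAs, with its exons to scale along the position in the circle (nt, from the first exon) and numbered as in the matched transcript. Yellow marks 5′ UTR and blue coding sequence: the circle of Nrip1 is all 5′ UTR, that of Ncoa2 is mixed and the other 5 are all coding, from 169 nt (Med13) to 599 nt (Slc16a10).

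In 6 of the 7 exonic circles (exact 95% interval 42.1% to 99.6%) the first exon was exon 2 of the matched transcript, the exception being Med13. This rank depends on the transcript, since the exon at which both Med12l circles start is exon 3 in Med12l-203. Among the other 455 circRNAs of the table with annotated exon ends, 171 (37.6%, exact 95% interval 33.1% to 42.2%) began at exon 2. The introns before the 7 circles ran from 9245 to 87912 nt with a median of 24445 nt, against a median of 8707 nt for the others. Those after them had a median of 25828 nt, against 5776 nt. These features were not tested for a difference, and both Med12l circles share their first exon and the intron before it. The spliced lengths (median 330 nt, against 376 nt) and the GC content (median 49.3%, against 45.5%) lay well within the range of the other circRNAs.

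The deposited table gives junction reads for each circRNA and library. They added up to 4125 in A1, 4372 in B1 and 2913 in C1. B1 and A1 held few circRNAs with many reads each (140 and 157 detected, median 33.5 and 25 reads), while C1 held 320 with a median of 7 reads. A count of 0 allows up to 3 reads, or 0.0727%, 0.0686% and 0.103% of the reads of A1, B1 and C1. Intervals are exact 95% intervals and cover counting error only, since copies made in PCR are not independent molecules. With 1 library per group there is no spread between mice, so differences could not be checked against replicates and p-values are left out. The exosome markers Cd9, Cd63, Cd81 and Tsg101 had 0 rows in the table, which speaks only of their circRNAs.

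The 8 circRNAs took 5.67% of the junction reads of B1 (248 reads, 5.01% to 6.40%), 3.35% of A1 (138 reads, 2.82% to 3.94%) and 1.06% of C1 (31 reads, 0.724% to 1.51%). Of these, 5 had reads in B1, 4 in A1 and 3 in C1. A single library held all reads of 6, as it did for 520 (92.4%) of all 563 circRNAs, and 2 were found in all 3 libraries, as were 11 (1.95%) of all. A junction is 1 place per circle whatever its length, so reads were not divided by length. Whether short and long circles yield junction reads at the same rate was not tested. Fewer cells that release a circle and fewer circles per cell cannot be told apart in bulk plasma vesicles.

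Among the Mediator hosts, Med13l was the circRNA read evenly enough to be followed across the libraries. It had 16 reads in A1, 60 in B1 and 15 in C1, so that B1 stood above both others while A1 and C1 lay side by side. In RPM (reads per 1000000 junction reads of the library) these are 3880 (2220 to 6300), 13700 (10500 to 17700) and 5150 (2880 to 8490), and the interval of B1 overlaps neither of the others. Med13 was found in B1 only, with 0, 32 and 0 reads in A1, B1 and C1, the same library in which its paralog was highest.

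The longer Med12l circle was abundant in 2 libraries and close to missing in the third. It had 67 reads in A1, 52 in B1 and 1 in C1. That made it the 3rd most abundant of the 157 circRNAs of A1 and the 9th of the 140 of B1, whereas in C1 it shared the lowest count of 1 read. The shorter Med12l circle had 12 reads in A1 and 0 in B1 and C1. Thus 15.2% of the Med12l junction reads of A1 (8.1% to 25%) ended at the 33 nt exon, and 0 of 52 did so in B1, which allows a share of up to 5.77% by the floor of 3 reads, the exact interval for B1 ending at 6.85%. In C1 the single Med12l read allows no statement on the share.

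The coregulators split between libraries. Ncoa2 had 0 reads in A1, 24 in B1 and 0 in C1. The exonic circle of Nrip1 had 43, 0 and 0 reads, and its intronic circRNA had 0, 0 and 15 reads. No library therefore held both Nrip1 circRNAs, and B1 held none of them.

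Slc16a10 had 0 reads in A1, 80 in B1 and 0 in C1. With 18300 RPM (14500 to 22800) it was the 3rd most abundant circRNA of B1 and had the most reads of the 8 in any library. Within B1 it was followed by Med13l (60 reads, 45.8 to 77.2), the longer Med12l circle (52, 38.8 to 68.2), Med13 (32, 21.9 to 45.2) and Ncoa2 (24, 15.4 to 35.7). The intervals of neighbours in this order overlap in each case, while those of Slc16a10 and Med13 do not.

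**Figure D2:**
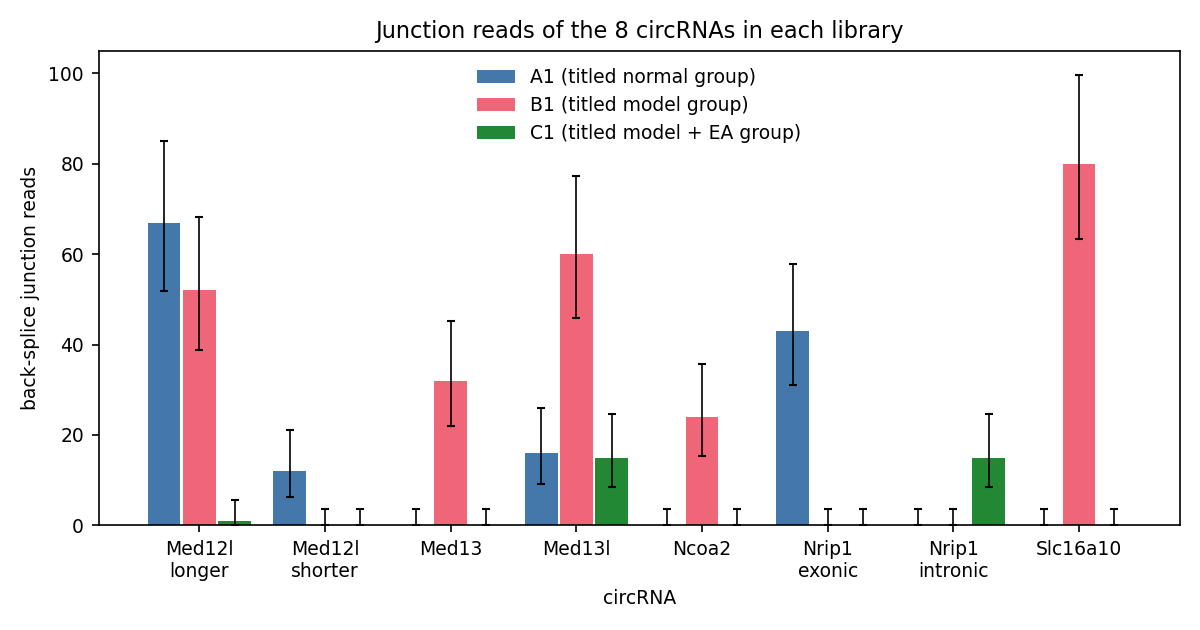
Bars give the junction reads (counts, axis from 0) of each circRNA in libraries A1, B1 and C1, 1 library per group, with exact Poisson 95% intervals for counting error. Slc16a10, Med13 and Ncoa2 have reads in B1 alone (80, 32 and 24), and Med13l and the longer Med12l circle have reads in all 3.

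**Figure D3:**
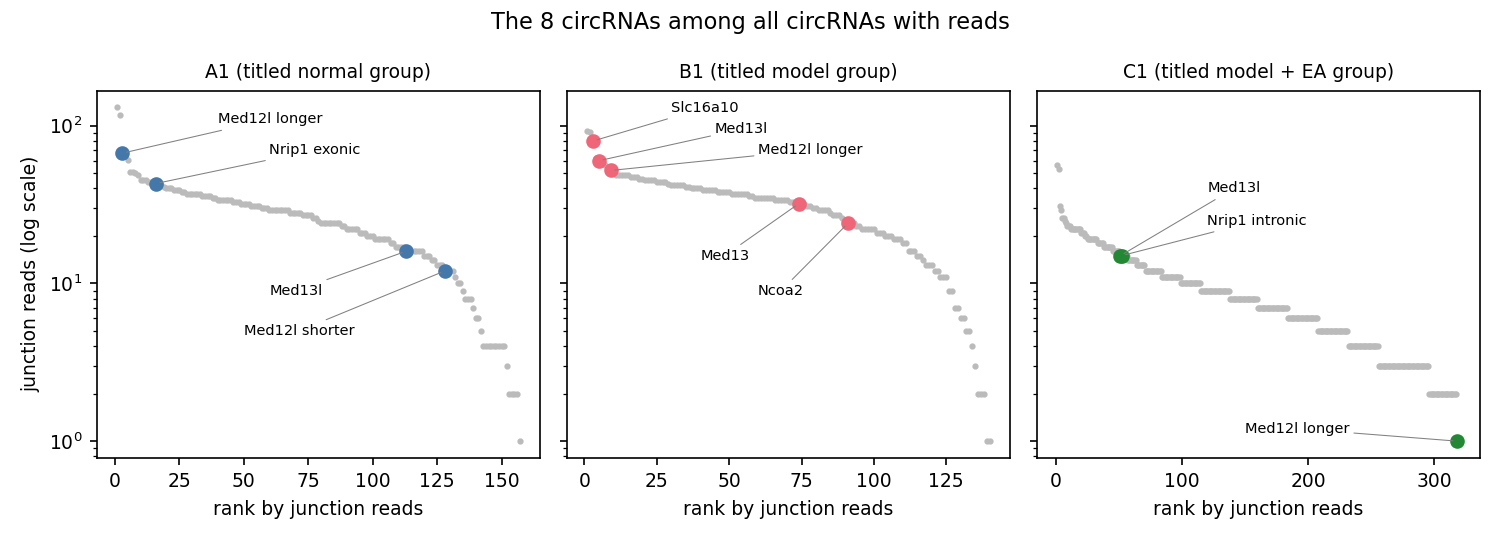
Each grey point is a circRNA with reads in that library, placed by its rank and its junction reads (log scale), and coloured points are the 8 described here. Slc16a10 stands at rank 3 of 140 in B1, and the longer Med12l circle at rank 3 of 157 in A1 and among the lowest counts of C1.

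Fold changes were taken between counts times the authors' factor for each library (1.28 for A1, 1.03 for B1 and 1 for C1), with calls made from 2-fold in either direction. Against a library with 0 reads only a lower bound is given, computed against 3 reads per library. The count of the higher library enters without its own counting error, and allowing for that lowers these bounds, to 17.2 from 21.6 for Slc16a10 in B1 against A1.

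B1 against A1 is model against normal by the titles and model + EA against model by the sheets. In B1 the circles of Slc16a10, Med13, Ncoa2 and Med13l were higher and those of Nrip1 (exonic) and Med12l (shorter) lower. Slc16a10 was at least 21.6-fold, Med13 at least 8.66-fold and Ncoa2 at least 6.49-fold higher in B1. Med13l, with reads in both libraries, was 3.04-fold higher in B1, with an interval of 1.73 to 5.66 that reaches below 2-fold. The exonic circle of Nrip1 was at least 17.7-fold lower and the shorter circle of Med12l at least 4.93-fold lower. The longer circle of Med12l had a ratio of 0.63 (0.43 to 0.918) and was not called. Thus 6 of the 8 were called, where 48.5% of all 563 were. The shares over all are held down by the 280 circRNAs (49.7%) found in C1 alone, 1 of the 8 among them. With 0 reads in both libraries of this pair, these could not be called. Of the 8, 4 were higher, where 22.6% of all were, and 2 were lower, where 25.9% were. From the same libraries the study had listed Med13, Med13l, Ncoa2 and Slc16a10 as upregulated by EA. It had listed Med12l and the exonic circle of Nrip1 as downregulated. These counts are therefore not independent of how the hosts were picked. Their median log2 ratio was 0.65, against -0.30 over all circRNAs. The -0.30 is the value of a circRNA with 0 reads in both libraries and is set by the factors alone. The 0.65 lies midway between it and the 1.61 of Med13l, so neither median measures a shift.

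The pair C1 against B1 is model + EA against model by the titles, while the sheets compare the same libraries the other way round, as B1 (model + EA) against C1 (normal). In C1, 5 of the 8 were lower and only the intronic Nrip1 circRNA was higher. Slc16a10 was at least 27.6-fold, Med13 at least 11-fold and Ncoa2 at least 8.28-fold lower in C1. The longer Med12l circle was lower too, at 1 against 52 reads, a ratio of 0.0186 (0.000462 to 0.108). Med13l had a ratio of 0.242 (0.127 to 0.431), a log2 ratio of -2.05 that became -0.96 and was no longer called with TMM factors of edgeR. The intronic circRNA of Nrip1 was at least 4.83-fold higher in C1. Thus 6 of the 8 were called, where 74.8% of all were. The 135 circRNAs found in A1 alone (24%), 2 of the 8 among them, could not be called in this pair. Over all circRNAs the larger share was on the other side, with 23.1% lower and 51.7% higher in C1, but this rested on circRNAs with few reads. Among circRNAs with at least 10 reads in either library, those lower made up 21.1% and those higher 18.1% of all 563, while the 8 still counted 5 and 1. The study's methods ask for a change in its EA library, B1 by the sheets, against both other libraries. The calls of Slc16a10, Med13, Ncoa2 and Med13l in this pair are therefore not independent of how the hosts were picked. The median log2 ratio of the 8 was -3.90, against 4.27 over all, and it was -2.55 against -0.05 with 3 reads in place of 0. The 4.27 rests on the 0.1 reads in place of 0, and the -0.05 is the value of equal counts, set by the factors alone.

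The third pair, C1 against A1, compares model + EA with normal by the titles and is read as normal against model by the sheets. The Med12l circles and the exonic circle of Nrip1 were lower in C1, and the intronic circRNA of Nrip1 was higher. The longer Med12l circle had a ratio of 0.0117 (0.000292 to 0.0675), and the shorter one was at least 5.10-fold lower. The exonic circle of Nrip1 was at least 18.3-fold lower and the intronic circRNA at least 3.92-fold higher. Med13l had a ratio of 0.735 (0.339 to 1.59) and was not called, but its log2 ratio turned from -0.44 to 0.41 when scaled to total junction reads, to 0.91 with DESeq2 size factors and to 1.19 with TMM factors, which called it higher in C1. Slc16a10, Med13 and Ncoa2 had 0 reads in both libraries, so no fold is given. Here 4 of the 8 were called, where 80.6% of all were, with 3 lower, where 27.0% of all were, and 1 higher, where 53.6% were. With at least 10 reads in either library the shares over all were 23.4% lower and 18.5% higher, and the 8 again counted 3 and 1. The medians were -0.40 for the 8 and 3.97 over all, or -0.40 and -0.35 with 3 reads in place of 0. The -0.35 is the value of equal counts, 0 reads in both included, and is set by the factors alone. The -0.40 lies midway between it and the -0.44 of Med13l, so neither of these measures a shift.

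**Figure D4:**
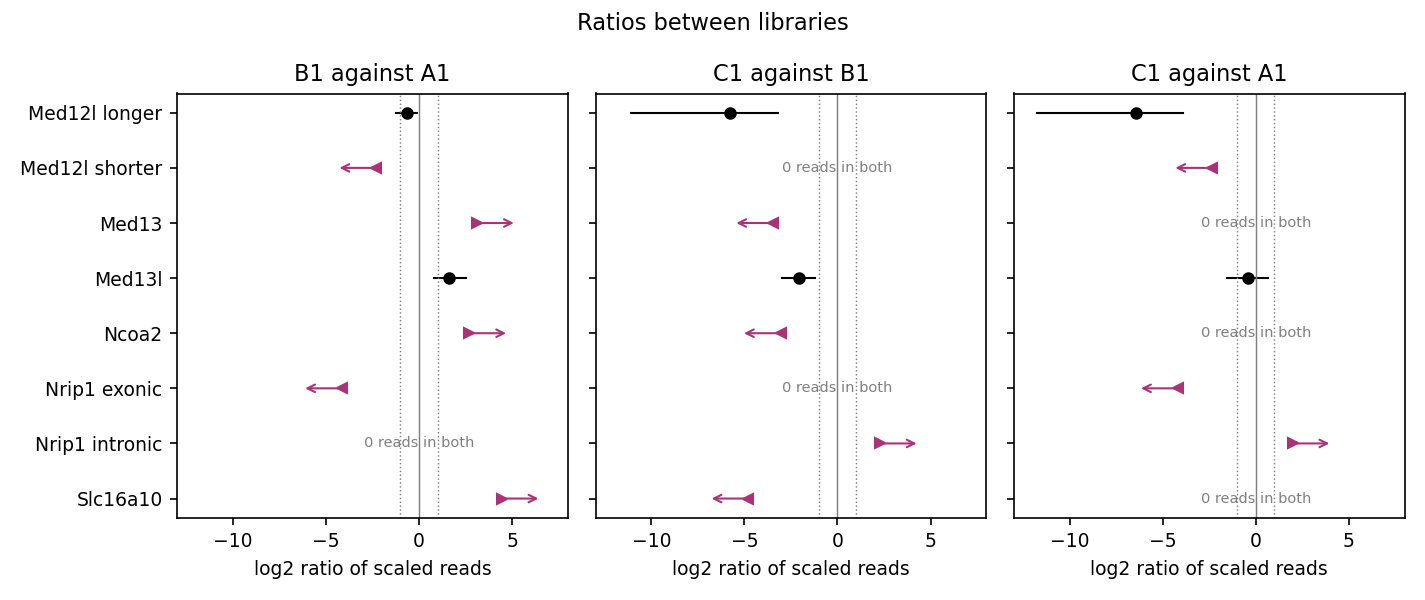
Log2 ratios of scaled reads for the 8 circRNAs in each pair of libraries, with black points and lines for ratios and exact 95% intervals where both libraries had reads, and purple arrows from the lower bound where 1 library had 0 reads. Dotted lines mark 2-fold. Slc16a10, Med13 and Ncoa2 point to B1 against both A1 and C1.

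**Figure D5:**
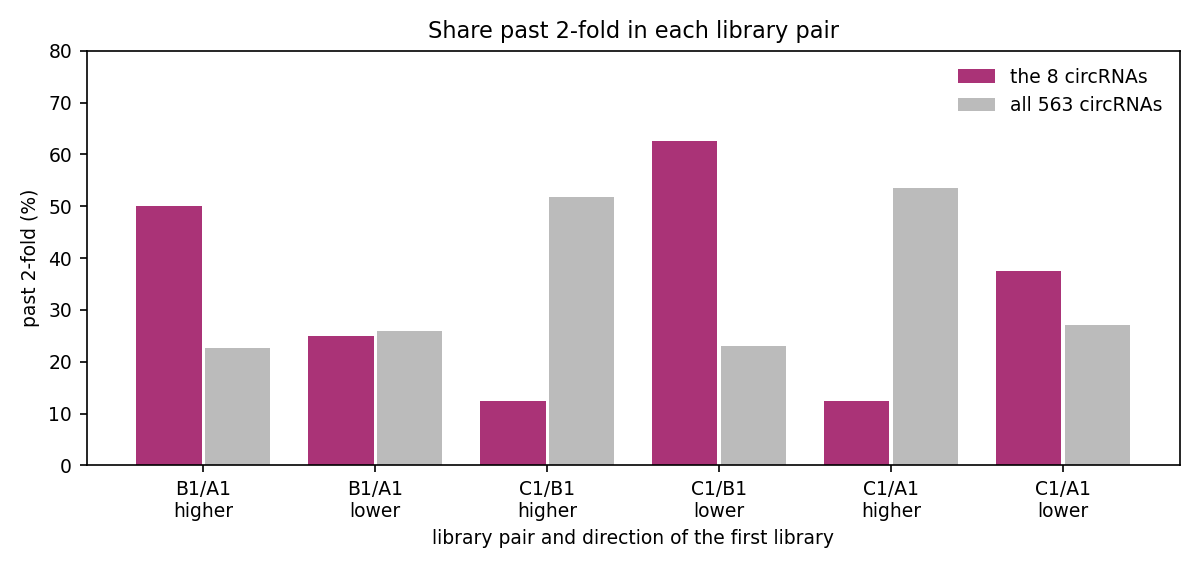
Bars give the percent of the 8 circRNAs (purple) and of all 563 circRNAs (grey) past 2-fold in each pair of libraries, by the direction of the library named first, with no error drawn. In C1 against B1, 5 of the 8 were lower, where 23.1% of all were. The hosts were picked with earlier results of these data known.

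All 3 comparisons reuse the same 3 libraries, so that a circRNA with reads in B1 alone is counted in both pairs that hold B1. Erythroid marker hosts also differed between the libraries, with 6 junction reads in A1, 50 in B1 and 33 in C1 from 5 of the 18 hosts on the list. In B1, 43 of the 50 came from Hbb-bs, a beta globin gene whose reads can be shared with its near-identical neighbour, and this junction had 0 reads in A1 and C1. The defining erythroid gene Hba-a1 had 2, 2 and 1 reads, and Alas2 and Slc4a1 had no row. Of the platelet list only Gp6 had a row (37 reads in A1), and B cell, T and NK cell, myeloid, hepatocyte, endothelial and islet markers had none. The part of blood cell RNA in the differences above was not tested.

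The patterns of the 2 circRNAs with reads in several libraries were compared with those of all other hosts, by the distance between log2 RPM over the 3 libraries. Closest to Med13l was a circRNA of Strn3, a subunit of the STRIPAK complex, with 21, 46 and 19 reads in A1, B1 and C1 (distance 0.63), followed by Ankib1 with 36, 54 and 15 reads (1.16) and the transcription factor Nfix with 29, 29 and 15 reads (1.33). Among the nearest to the longer Med12l circle were Tbc1d1 with 23, 30 and 0 reads (2.33) and Chm with 26, 9 and 0 reads (3.23). With 3 libraries such distances describe these libraries only.

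The other genes of the pathway gave few circRNAs. Of 33 Mediator genes on the list, only Med12l, Med13 and Med13l had a row, and the 5 thyroid hormone and retinoid X receptor genes had none. Slc16a10 was also the only one of 13 genes of thyroid hormone transport and deiodination with a row. Of 30 coregulator genes, 7 had a row. Beside Ncoa2 and Nrip1 these were Nsd1, a histone methyltransferase (45 reads in A1 alone), the ubiquitin ligase Trip12 (29 in A1 alone), the coactivator Ncoa7 (18 and 9 reads of 2 circRNAs in C1 alone), the corepressor Ncor1, which represses with the unliganded receptor (10 in C1 alone), and the coactivator Ncoa6 (4 in C1 alone). Of the 9 coregulator circRNAs, 3 had reads in A1, 1 in B1 and 5 in C1, beside 157, 140 and 320 of all 563, so nothing is read from this split.

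Of 85 further genes of thyroid hormone signaling, 5 had a row, and C1 held reads of none. Among them Tsc2, an inhibitor of mTORC1 signaling (39 reads), the phospholipase Plcg2 (16 reads) and the protein kinase Prkca (15 reads) were found in A1 alone, and Pik3cb, a catalytic subunit of phosphoinositide 3-kinase (49 reads), in B1 alone. In B1 against A1, 1 of these 5 was higher and 3 were lower, where 22.6% and 25.9% of all circRNAs were. Over all 5 lists, the 11 circRNAs outside the 6 hosts counted 1 higher and 5 lower in B1 against A1, 4 higher and 2 lower in C1 against B1, and 4 higher and 6 lower in C1 against A1. The shares over all circRNAs were 22.6% and 25.9%, 51.7% and 23.1%, and 53.6% and 27.0% in the same order. The study named several of these hosts for this pathway from the same libraries, so the counts are not independent evidence of a direction.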

How the data were processed

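RNA of plasma exosomes was sequenced as paired-end reads from strand-specific libraries after removal of rRNA. Per the submitters' processing notes the authors used cutadapt 1.9.3, STAR 2.5.1b and mm10, and circRNAs were detected with DCC. The authors' counts are raw back-splice junction reads of 3 libraries, 1 per group. The deposited log2 values are these counts multiplied by a factor for the library, 0 being replaced by 0.1 reads. The sources used here do not give how the factors were set.

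Groups follow the sample titles. Calls were made at a ratio of at least 2 or at most 0.5 of the counts times these factors. The threshold is that of the study, here applied to each pair of libraries by itself, and a circRNA with 0 reads in both libraries was not called. Intervals are exact (Poisson, or Clopper-Pearson at 95%), and the floor for a count of 0 is 3 reads. GENCODE M21, which uses the same assembly, gave exons, coding positions and sequences, for the transcript with both ends and the predicted length. No genome sequence was used here, so splice site bases were not read.

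Named circRNAs are all those of the 6 hosts, those of the listed pathway genes, and the 3 nearest patterns of each circRNA with reads in at least 2 libraries (0.5 reads added). Some items that this rule names are not reported here. Members and lists were chosen with earlier results of these data known. The alternatives changed the value for 0, the scaling (edgeR 4.0.16, DESeq2 1.42.0), the read minimum, the fold, the counting rule, the denominator and the grouping. The intervals and calls were tested on simulated independent Poisson counts (scipy 1.17.1), without PCR copies or spread between mice. The bounds against 3 reads were not part of that simulation.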

Additional observations from a re-analysis of the deposited data

How the results depend on the processing

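The grouping of the libraries decides the directions. With the groups of the study's sheets, model against normal counted 1 lower circRNA in place of 2, where 53.6% of all were. Model + EA against model counted 4 higher and 2 lower in place of 1 and 5, where 22.6% and 25.9% of all were. Model + EA against normal counted 5 higher and 1 lower in place of 1 and 3, where 23.1% and 51.7% of all were. Ratios against 0 reads are set by the 0.1 reads in place of 0, so each is given with its bound against 3 reads. For model against normal the log2 ratio turned to 7.26 for the shorter Med12l circle (at least 5.10-fold higher) and 9.10 for the exonic Nrip1 circle (at least 18.3-fold), and it moved to 6.42 for the longer Med12l circle and from 1.61 to 0.44 for Med13l. For model + EA against model it turned to 8.02 for Med13 (at least 8.66-fold), 1.61 for Med13l, 7.61 for Ncoa2 (at least 6.49-fold) and 9.34 for Slc16a10 (at least 21.6-fold), while the longer Med12l circle moved from -5.75 to -0.67 and was not called. For model + EA against normal it turned to 5.75 for the longer Med12l circle and -7.18 for the intronic Nrip1 circRNA (at least 4.83-fold lower), and Med13l moved from -0.44 to 2.05. Under the other settings 60 of 66 counts stayed within 1.5 times. Requiring 20 reads in either library, 1 circRNA was lower in B1 against A1, where 16.3% of all were. In C1 against B1 or A1, 0 were higher, where 3.73% and 3.91% of all were. The circles of 12 and 15 reads fell under this minimum. Summed per host, 1 host was lower in B1 against A1 and 0 were higher in C1 against A1, where 28.5% and 51.6% of all hosts were. Each sum pools both Nrip1 or both Med12l circRNAs. TMM factors counted 2 higher in C1 against A1, where 54.2% of all were. Relative to the authors' factors, the other scalings moved every log2 ratio by 0.22 to 0.54 for B1 against A1, 0.05 to 1.09 for C1 against B1 and 0.35 to 1.63 for C1 against A1. Med13l was the only 1 of the 8 whose ratio left its interval. Its log2 ratios were then -0.96 (TMM) and -1 (DESeq2) in C1 against B1, and 1.19 (TMM) and 0.91 (DESeq2) in C1 against A1. Pooled over the libraries, the shorter circle took 9.09% of the Med12l reads, above the limit for B1. Levels changed by less than their counting error when 28 abundant circRNAs were left out of the totals. No paired analysis was possible because each group has 1 library.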
